A study of Mus musculus with 4 samples.

Results

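Cytochrome P450 genes were followed in mouse lung across 4 microarrays of an ovalbumin allergy experiment. Members were the probes on the array whose gene name is Cyp, a family number, a letter and a member number, with 3 pseudogene names left out. This gave 94 genes, read by 118 probes, of 31044 genes on the array.

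P450 enzymes are heme-containing monooxygenases that add oxygen to drugs, pollutants, fatty acids, sterols, steroid hormones and vitamins, using electrons from cytochrome P450 reductase or, in mitochondria, from ferredoxin. In rodent lung the club cells of the conducting airways hold most of the foreign-compound metabolism, with Cyp2f2 and Cyp2b10 among their known enzymes. Cyp1a1 is the textbook target of the aryl hydrocarbon receptor, and Cyp26 enzymes clear retinoic acid.

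Each group was 1 array made from lung RNA pooled from 4 samples: Pla2g3-/- antigen challenged, Pla2g3+/+ antigen challenged, Pla2g3-/- control and Pla2g3+/+ control. Pla2g3 encodes a secreted phospholipase A2. The protocol gives sensitisation with 10 µg ovalbumin and 1.3 mg alum on days 0 and 14, a 1% ovalbumin aerosol for 30 min on each of days 26, 27 and 28, and lungs collected 48 h later. That text stands with every sample, so the treatment of the control mice cannot be read from it. Strain, sex, age and the deleted stretch are not stated in the sources used here. Mouse-to-mouse spread cannot be had from these arrays, and no difference between a single pair of arrays has a p-value.

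The values exist in 2 sources, the scanner files and the authors' value table, whose columns of 1 name did not follow each other. Log2 levels of all probes correlated at 0.911 to 0.919 between sources under the same name and at 0.911 to 0.917 under different names, against 0.985 to 0.994 within a source. Every comparison is therefore given for each source apart. Levels are log2 of the signal over the 75th percentile of the array's probes, so 0 is the level of a probe at that percentile. Pla2g3 itself was higher in the arrays labelled knockout: 25.4-fold after challenge and 22.1-fold in controls in the table, and 14.9-fold and 9.14-fold in the scanner files. A second probe gave 14.8-fold and 16.2-fold in the table and 23.5-fold and 4.35-fold in the scanner files. Its probes lie on chromosome 11, and whether the deletion covers them is not given, so arrays are called KO-labelled and WT-labelled and every genotype direction rests on the labels. Markers of the lung were present: all 17 club cell, all 15 ciliated and all 20 alveolar epithelial genes listed were above background on at least 1 array of each source. The sources differed in their balance. Summed club cell signal (in units of the 75th percentile) was 332 to 398 in the table and 1401 to 1607 in the scanner files, while alveolar signal was 543 to 569 and 327 to 345. Lung endothelial signal was 242 to 260 and 120 to 139. Some alveolar and endothelial genes differed far more than these sums. Sftpc had levels of 6.92 to 7.04 in the table and -1.33 to -0.26 in the scanner files. Ager had 3.60 to 3.73 and -5.34 to -4.84. Of the endothelial genes, Cdh5 had 3.04 to 3.25 and -6.13 to -4.59, and Cldn5 had 4.50 to 4.72 and -4.21 to -2.50. Epas1, the brightest endothelial gene in the scanner files, was higher there, at 6.79 to 7.04 against 5.95 to 6.03, so the endothelial sum there leans on it. The alveolar genes Sftpd, Aqp5, Lyz1, Lyz2 and Pdpn were also higher in the scanner files.

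The stretches of DNA just before the start of 5 members are shown because Cyp1a1 and Cyp26b1 each stood apart on 1 array, with the relatives Cyp1a2, Cyp1b1 and Cyp26a1 beside them. Each is the 250 bases before the annotated start in RefSeq (build GRCm38.p6), 5′ to 3′ on the strand of the gene. In the first 3 the capitals mark the core of the aryl hydrocarbon receptor element, GCGTG on either strand. In the last 2 they mark an exact form of the retinoic acid response element, AGTTCA repeated once with any 5 bases between, on either strand.
Cyp1a1: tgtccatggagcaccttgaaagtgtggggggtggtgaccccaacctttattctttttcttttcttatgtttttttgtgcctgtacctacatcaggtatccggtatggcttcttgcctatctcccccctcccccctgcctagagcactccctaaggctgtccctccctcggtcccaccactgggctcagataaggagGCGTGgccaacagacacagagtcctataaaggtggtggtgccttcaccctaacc
Cyp1a2: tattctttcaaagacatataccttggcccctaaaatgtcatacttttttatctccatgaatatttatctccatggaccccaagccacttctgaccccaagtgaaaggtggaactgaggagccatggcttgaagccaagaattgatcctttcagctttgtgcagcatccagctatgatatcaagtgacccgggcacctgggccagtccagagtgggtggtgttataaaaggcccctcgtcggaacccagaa
Cyp1b1: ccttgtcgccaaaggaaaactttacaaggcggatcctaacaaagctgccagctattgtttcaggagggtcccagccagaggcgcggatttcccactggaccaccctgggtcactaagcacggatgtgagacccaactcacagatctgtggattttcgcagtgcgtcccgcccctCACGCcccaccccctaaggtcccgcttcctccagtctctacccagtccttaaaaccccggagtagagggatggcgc
Cyp26a1: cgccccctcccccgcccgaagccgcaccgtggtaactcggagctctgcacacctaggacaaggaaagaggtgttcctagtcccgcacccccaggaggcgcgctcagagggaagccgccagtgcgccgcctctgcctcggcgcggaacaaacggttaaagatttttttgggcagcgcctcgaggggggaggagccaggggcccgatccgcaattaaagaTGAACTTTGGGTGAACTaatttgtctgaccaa
Cyp26b1: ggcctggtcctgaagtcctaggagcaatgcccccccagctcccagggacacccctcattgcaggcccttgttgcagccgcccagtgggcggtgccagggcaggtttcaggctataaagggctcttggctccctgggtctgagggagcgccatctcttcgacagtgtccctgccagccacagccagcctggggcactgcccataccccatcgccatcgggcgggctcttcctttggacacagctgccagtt

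The Cyp1a1 window is chr9:57697363-57697612 on the plus strand and has 1 core, beginning 54 bases before the start. Cyp1a2 (chr9:57683656-57683905, minus strand) lies beside it on chromosome 9 and has none of these letters in its window. Cyp1b1 (chr17:79715062-79715311, minus strand) has 1, beginning 76 bases before the start. The core is short and common: it occurs in 28.2% of 32851 promoter windows of this length and in those of 14 of the 71 members with a window. This exact form of the retinoic acid repeat is rare, in 7 of the 32851 windows. Among members only Cyp26a1 (chr19:37697558-37697807, plus strand) has it, beginning 32 bases before the start. Forms of the repeat with other letters were not searched, so the count does not cover the element in general. Cyp26b1 (chr6:84593811-84594060, minus strand) does not hold those letters. A match or its absence in such a window describes the sequence and says nothing on binding in these lungs.

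Of the 94 genes, 62 were above background on all 4 arrays of the value table, 16 on 1 to 3 arrays and 16 on none. The scanner files gave 63, 12 and 19. The same 57 genes were present on all 4 arrays of both sources, and 9 genes were at background on all arrays of both, among them Cyp1a2, the liver enzyme Cyp7a1 and the retinoic acid hydroxylase Cyp26c1. The brightest probes in the plot of levels by array were those of airway enzymes. Probes differ in how well they bind, so levels are compared between arrays and not between genes.

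**Figure D1:**
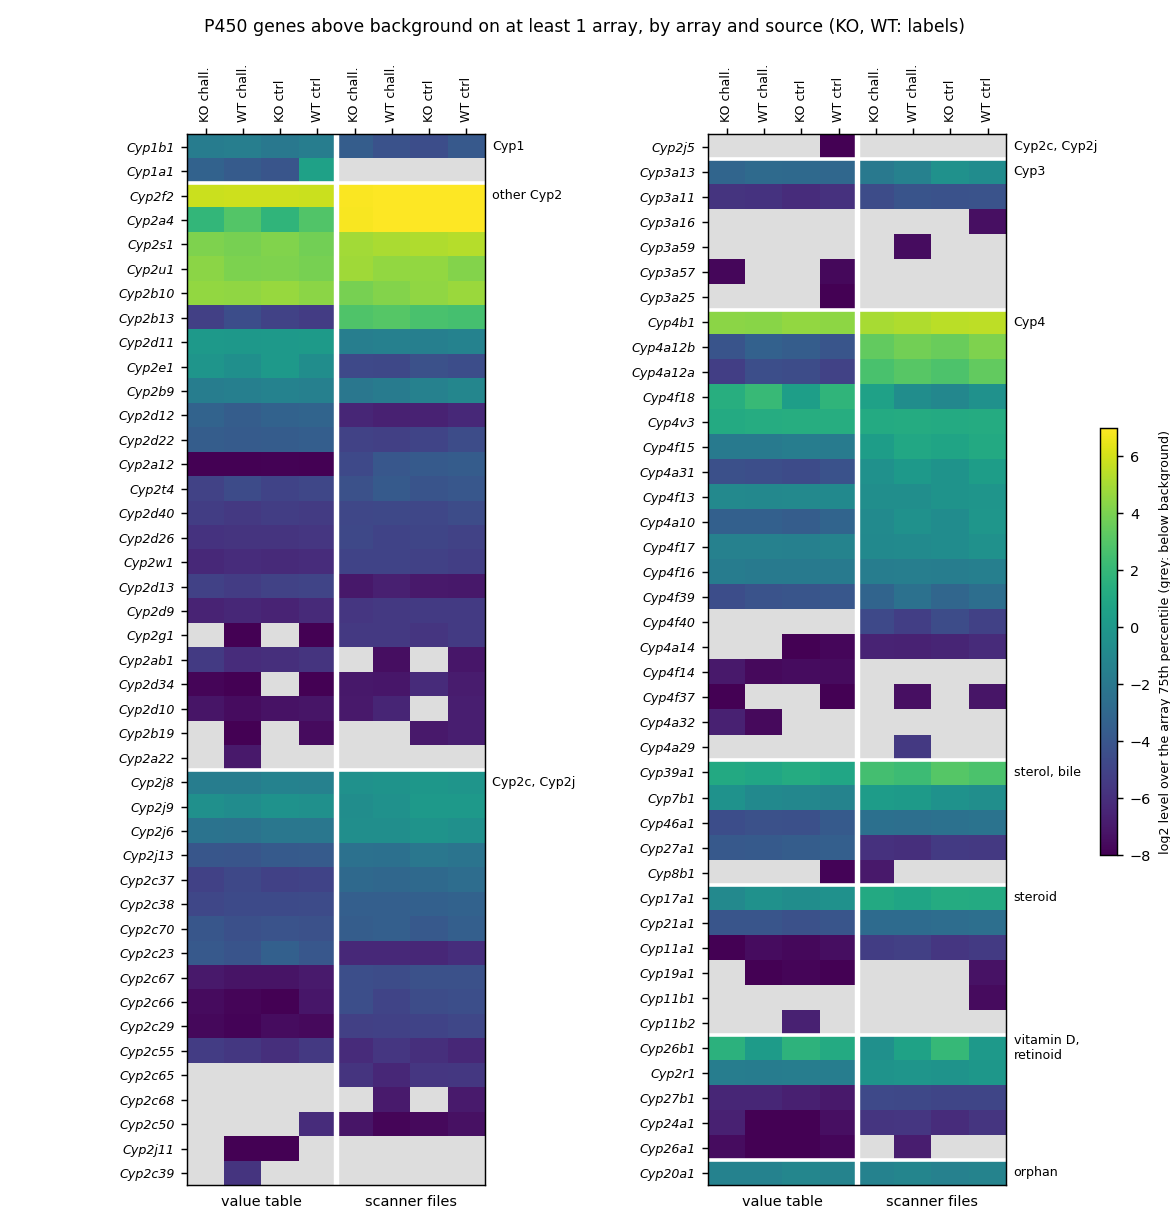
Log2 level, over the 75th percentile of its array, of each of the 85 P450 genes above background on at least 1 array, by array (columns) and source, ordered by role, with grey cells below background. Cyp2f2 and Cyp2a4 are brightest in the scanner files, Cyp1a1 stands out in 1 table column and is grey in all scanner columns, and Cyp4a12a, Cyp4a12b and Cyp2b13 are much brighter in the scanner files.

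Most foreign-compound enzymes of the airway differed by less than 2-fold between groups, with Cyp2a4 in the table, described with the genotype labels, the exception among those named here. Cyp2f2, which activates naphthalene in club cells, had table levels of 5.82 in the KO-labelled challenged, 5.86 in the WT-labelled challenged, 5.87 in the KO-labelled control and 5.82 in the WT-labelled control array. Its scanner levels were 6.93, 7.19, 7.26 and 7.24 in the same order of arrays. The 4 table levels nearly coincide, and of the scanner levels the KO-labelled challenged one is the lowest. Cyp2b10, a phenobarbital-inducible enzyme, had 4.59 (KO-labelled) and 4.51 (WT-labelled) in the challenged and 4.68 (KO-labelled) and 4.37 (WT-labelled) in the control arrays of the table. Its scanner levels were 3.94 (KO-labelled) and 4.23 (WT-labelled) after challenge and 4.48 (KO-labelled) and 4.77 (WT-labelled) in controls, so both challenged arrays lay 0.54 below their control there.

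Cyp4b1, which oxidises fatty acids and small lung toxicants, followed a similar course. Its table levels were 4.38 (KO-labelled) and 4.36 (WT-labelled) after challenge and 4.59 (KO-labelled) and 4.44 (WT-labelled) in controls, and its scanner levels 5.01 (KO-labelled) and 5.22 (WT-labelled) after challenge and 5.42 (KO-labelled) and 5.48 (WT-labelled) in controls. The challenged array was the lower of each of the 4 pairs, by 0.08 to 0.41. Cyp2s1, an epithelial enzyme, was 0.29 (KO-labelled) and 0.25 (WT-labelled) lower after challenge in the scanner files, while its table differences were -0.05 (KO-labelled) and 0.07 (WT-labelled). Cyp2u1, a fatty acid hydroxylase with high signal here, ran the other way: 0.25 (KO-labelled) and 0.11 (WT-labelled) higher after challenge in the table and 0.28 (KO-labelled) and 0.36 (WT-labelled) in the scanner files. Its other probes, both far dimmer, gave challenge differences of -0.29 to 0.41, so the direction rests on the brightest probe. Spot errors of the scanner differences, which are Agilent's reading error and leave out the mice, were about 0.20 for the bright probes. The summed club cell signal in the scanner files was 1401 in the KO-labelled challenged array, 1592 in the WT-labelled challenged array, 1607 in the KO-labelled control and 1553 in the WT-labelled control. Its part in these differences was not tested, and in pooled whole lung fewer cells of a type and less RNA per cell cannot be told apart.

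Cyp1a1, the aryl hydrocarbon receptor target of the first promoter shown, was set apart on 1 array. In the table its level was -3.29 in the KO-labelled challenged, -3.70 in the WT-labelled challenged and -4.06 in the KO-labelled control array, against 0.60 in the WT-labelled control. The WT-labelled control was thus high alone. The challenge difference was 0.77 in the KO-labelled pair and -4.30 in the WT-labelled pair, and KO-labelled minus WT-labelled was -4.66 in controls and 0.41 after challenge. On all 4 scanner arrays Cyp1a1 was at background, with levels of -9.53 to -9.19. The single probe has 1 spot per array (chromosome 9, 57551535 to 57551594, mm9).

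Other genes of the receptor's pathway are given for comparison. In the table Cyp1b1, the extrahepatic enzyme of family 1, had -1.70 (KO-labelled) and -1.61 (WT-labelled) after challenge and -1.98 (KO-labelled) and -1.62 (WT-labelled) in controls. Ahrr, the receptor's repressor, had -4.42 (KO-labelled) and -5.64 (WT-labelled) after challenge and -6.40 (KO-labelled) and -5.64 (WT-labelled) in controls. Nqo1, a quinone reductase, was highest in the WT-labelled control at -2.54, against -3.49 to -2.95 on the other arrays. It was 0.95 lower after challenge in the WT-labelled pair. Other targets were not set apart on that array: Aldh3a1 had 1.674 in the KO-labelled and 1.675 in the WT-labelled control. Tiparp had 0.92 in the WT-labelled control and 0.90 to 1.05 on the other arrays. Of the 8 aryl hydrocarbon receptor targets listed besides P450 genes, 1 passed 2-fold in the KO-labelled pair of the table (Ahrr, 1.98 higher) and 0 did so in the WT-labelled pair. On the scanner arrays Cyp1b1 had -3.59 (KO-labelled) and -4.22 (WT-labelled) after challenge and -4.46 (KO-labelled) and -3.79 (WT-labelled) in controls. There it was 0.87 higher after challenge in the KO-labelled pair and 0.43 lower in the WT-labelled pair, a difference of responses of 1.29. Nqo1 had scanner challenge differences of -0.13 (KO-labelled) and 0.45 (WT-labelled), the latter opposite to the table. Ahrr was above background on 1 scanner array.

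**Figure D2:**
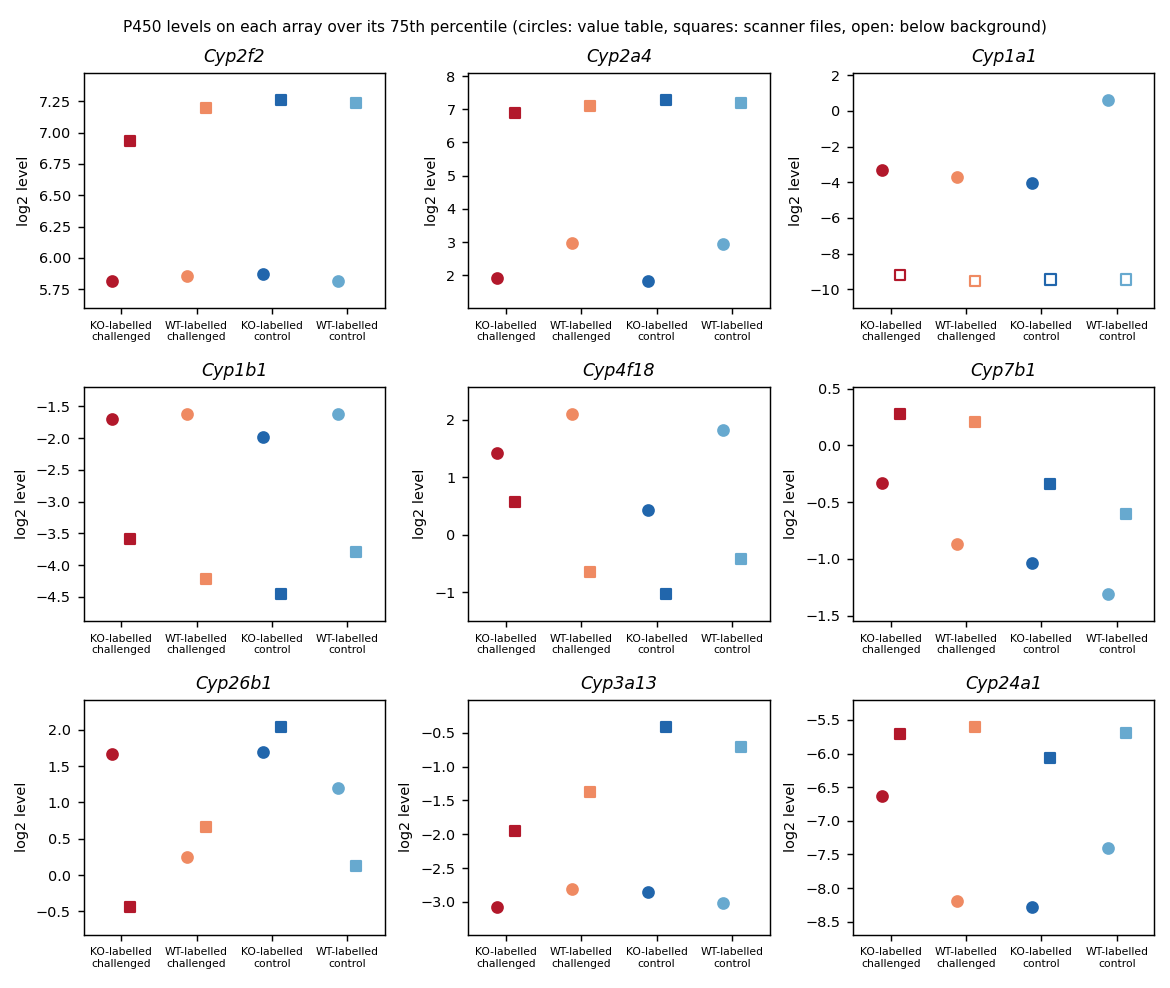
Log2 level over the array's 75th percentile for 9 P450 genes, by array (x axis), 1 point per array of pooled RNA and so no error bars, with circles for the value table, squares for the scanner files and open symbols below background. Cyp1a1 is high in the WT-labelled control of the table alone, Cyp7b1 is higher in the challenged array of each pair, and Cyp26b1 reaches 2.04 in the KO-labelled control of the scanner files.

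Cyp2c and Cyp2j enzymes turn arachidonic acid into epoxides that act on vessels and inflammation, and 19 were on the array. Cyp2j9, Cyp2j8, Cyp2j6 and Cyp2j13 were above background on all arrays of both sources. Cyp2j9 had -0.49 (KO-labelled) and -0.72 (WT-labelled) after challenge and -0.37 (KO-labelled) and -0.45 (WT-labelled) in controls in the table, and -0.66 (KO-labelled) and -0.39 (WT-labelled) after challenge against 0.09 (KO-labelled) and 0.03 (WT-labelled) in controls in the scanner files. All 4 of these Cyp2j genes were lower after challenge in both genotypes of both sources by their brightest probes, by 0.12 to 0.75. A dimmer Cyp2j13 probe, above background on all arrays, gave 0.23 (KO-labelled) and -0.21 (WT-labelled) in the table and 0.06 (KO-labelled) and 0.36 (WT-labelled) in the scanner files, so the direction for Cyp2j13 is uncertain.

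Over the subfamilies the differences were small. Among the genes with a mean level above the background limit, 7 of 12 were lower after challenge in the KO-labelled pair of the table (median -0.15) and 11 of 12 in the WT-labelled pair (median -0.25). The scanner counts were 10 of 15 (median -0.13) and 13 of 15 (median -0.24). Over all genes with such a level, 46.4% and 47.6% were lower in the table and 57.3% and 54.7% in the scanner files, with medians between -0.06 and 0.02. Cyp2c members share sequence: the probes of Cyp2c67 and Cyp2c68 match at 55 of 59 overlapping bases, so signal of close relatives may be mixed.

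Family 3, the main drug-metabolising enzymes of liver, had 2 of 8 genes on all 4 arrays in each source, Cyp3a13 and Cyp3a11. Cyp3a13 had -1.95 in the KO-labelled challenged, -1.38 in the WT-labelled challenged, -0.41 in the KO-labelled control and -0.71 in the WT-labelled control array of the scanner files. Both challenged arrays lay below both controls. The difference was -1.54 in the KO-labelled pair (spot error 0.20) and -0.67 in the WT-labelled pair, and a second probe gave -1.41 (KO-labelled) and -0.39 (WT-labelled). In limma's additive fit of the scanner arrays its averaged challenge effect was -1.11 with an SE of 0.28 (adjusted p 0.514). In the table Cyp3a13 had -3.08 (KO-labelled) and -2.81 (WT-labelled) after challenge and -2.85 (KO-labelled) and -3.01 (WT-labelled) in controls, differences of -0.23 (KO-labelled) and 0.20 (WT-labelled). The lowering was thus seen in 1 source.

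Family 4 holds fatty acid hydroxylases. Cyp4f18, which inactivates leukotriene B4 in neutrophils of mice, was lowest in the KO-labelled control of both sources. Its level in the table was 1.42 in the KO-labelled challenged, 2.11 in the WT-labelled challenged, 0.43 in the KO-labelled control and 1.83 in the WT-labelled control array. With the scanner, where the gene's other probe was the brighter, the levels were 0.57, -0.64, -1.03 and -0.42 in that order. The challenge difference was 0.99 in the KO-labelled and 0.28 in the WT-labelled pair of the table, and 1.60 (KO-labelled) and -0.22 (WT-labelled) in the scanner files. No difference of the WT-labelled pair reached 2-fold.

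Both Cyp4f18 probes sit on chromosome 8 (74512381 to 74512440 and 74512382 to 74512441, mm9, minus strand) and match at 56 of 59 overlapping bases. They are shown over 30 of these bases, the first being the probe used in the table and the second the one used in the scanner files, with capitals where they differ.
Cyp4f18, first probe: acctgtgcctttCcaggaataaaattttcT
Cyp4f18, second probe: acctgtgcctttAcaggaataaaattttcG

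These 2 probes gave nearly the same challenge differences but not the same genotype differences. In the KO-labelled pair the first and second probes gave 0.99 and 1.02 in the table and 1.5 and 1.60 in the scanner files. KO-labelled minus WT-labelled, the first gave -0.69 after challenge and -1.40 in controls in the table, and the second 0.05 and -0.69. With the scanner the first gave 0.51 and -1.17 and the second 1.21 and -0.61. The first probe was thus the lower of the pair in each genotype contrast. Some neutrophil and macrophage markers were also higher after challenge in the scanner files. Their summed signal was 170.7 (KO-labelled) and 115.3 (WT-labelled) after challenge and 76.2 (KO-labelled) and 80.3 (WT-labelled) in controls, with 8 of 15 markers at least 2-fold higher in the KO-labelled pair and 7 of 15 in the WT-labelled pair, where 1 (Marco, a macrophage receptor, -2.01) was lower. The neutrophil genes S100a8, S100a9, Retnlg, Mmp8 and Cxcr2 were higher in both pairs, by 1.58 to 3.78, while Itgam and Csf3r were lower in both, by 0.17 to 0.78. In the table the sums were 220.1 (KO-labelled) and 223 (WT-labelled) after challenge and 205.6 (KO-labelled) and 181.8 (WT-labelled) in controls. The KO-labelled pair there gave challenge differences of -0.44 (S100a8), -0.20 (S100a9), -0.04 (Cxcr2), 0.03 (Mmp8) and 1.39 (Retnlg). The WT-labelled pair of that source gave 0.66, 0.47, 0.575, 0.83 and 0.21 in the same order of genes. The part of these cells in the Cyp4f18 values was not tested.

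Several other family 4 genes gave different levels in the sources. Cyp4a12a and Cyp4a12b, arachidonic acid hydroxylases that are male-predominant in mouse liver and kidney, had scanner levels of 2.70 to 3.39 and 3.41 to 4.09 and table levels of -5.21 to -4.37 and -4.11 to -3.34. These levels compare sources normalised apart. In the table, Cyp4a12a was 0.71 lower after challenge in the KO-labelled pair and 0.68 higher in the WT-labelled pair, and Cyp4a12b 0.52 lower and 0.69 higher. Their scanner challenge differences were -0.11 (KO-labelled) and -0.28 (WT-labelled) for Cyp4a12a and -0.14 (KO-labelled) and -0.26 (WT-labelled) for Cyp4a12b, so the opposite course was not seen there. The 2 genes are close copies and their probes may read both.

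Cyp4a10, a target of PPAR alpha, and its neighbour Cyp4a31 had probes that disagreed on the genotype difference. Their brightest scanner probes are near copies, matching at 54 of 60 bases, with the differing bases in capitals (chromosome 4, 115198463 to 115198522 for Cyp4a10 and 115243923 to 115243982 for Cyp4a31, mm9, plus strand).
Cyp4a10: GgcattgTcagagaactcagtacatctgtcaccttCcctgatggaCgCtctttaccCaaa
Cyp4a31: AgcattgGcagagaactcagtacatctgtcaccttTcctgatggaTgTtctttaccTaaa

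With these probes Cyp4a10 was 0.42 lower in the KO-labelled than in the WT-labelled challenged array of the scanner files and 0.58 lower in the controls, and Cyp4a31 was 0.53 and 0.64 lower. Another probe of each gene, also above background on all 4 arrays, gave 0.39 for Cyp4a10 and 0.47 for Cyp4a31 after challenge, the other direction. The genotype direction of both genes after challenge is therefore uncertain. Cyp4f15 was also lower in the KO-labelled scanner arrays, by 0.62 after challenge and by 0.34 in controls. Cyp4f39 was lower there by 0.78 after challenge and by 0.49 in controls, and Cyp4f40 was 0.55 higher in both. In the table the KO-labelled minus WT-labelled differences were -0.05 after challenge and 0.10 in controls for Cyp4f15 and -0.33 and -0.06 for Cyp4f39, and Cyp4f40 was at background. Cyp4v3, another fatty acid hydroxylase, differed by 0.15 or less in every challenge pair.

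Among sterol and bile acid enzymes, Cyp7b1 was higher after challenge in every pair. This enzyme hydroxylates oxysterols, among them 25-hydroxycholesterol, from which it makes a ligand of the immune cell receptor EBI2. Its table level was -0.33 in the KO-labelled challenged, -0.87 in the WT-labelled challenged, -1.03 in the KO-labelled control and -1.31 in the WT-labelled control array. Its scanner levels were 0.28, 0.20, -0.34 and -0.60. In each source both challenged arrays lay above both controls. The differences were 0.70 (KO-labelled) and 0.44 (WT-labelled) in the table and 0.62 (KO-labelled) and 0.80 (WT-labelled) in the scanner files, all under 2-fold. The limma averaged challenge effect was 0.57 with an SE of 0.11 in the table (adjusted p 0.566, or 0.108 with a variance trend) and 0.71 with an SE of 0.12 in the scanner files (adjusted p 0.514, or 0.228 with a trend), so it did not pass.

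The other sterol enzymes had small differences. Cyp39a1, a 24-hydroxycholesterol hydroxylase with clear signal in both sources, was 0.53 (KO-labelled) and 0.48 (WT-labelled) lower after challenge in the scanner files, and -0.10 (KO-labelled) and 0.01 (WT-labelled) in the table. Cyp27a1, the mitochondrial sterol 27-hydroxylase, was lower after challenge in every pair, by 0.19 (KO-labelled) and 0.28 (WT-labelled) in the table and 0.38 (KO-labelled) and 0.50 (WT-labelled) in the scanner files. Cyp46a1, the cholesterol 24-hydroxylase of brain, differed by -0.48 to -0.02. Cyp7a1, the rate-limiting enzyme of bile acid synthesis, was at background throughout.

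Of the 6 steroid hormone enzymes, Cyp17a1, Cyp21a1 and Cyp11a1 were above background on all arrays of both sources. Cyp17a1, the 17-alpha-hydroxylase, had table levels of -0.97 (KO-labelled) and -0.43 (WT-labelled) after challenge and -0.64 (KO-labelled) and -0.40 (WT-labelled) in controls and scanner levels of 1.12 (KO-labelled) and 0.84 (WT-labelled) after challenge and 1.2 (KO-labelled) and 1.18 (WT-labelled) in controls. By their brightest probes, Cyp21a1 and Cyp11a1 differed by 0.32 or less in every challenge pair. A second Cyp21a1 probe was above background only in the KO-labelled challenged scanner array, at -5.60 against -9.79 in the KO-labelled control. That probe was at background on all table arrays. Aromatase, Cyp19a1, was above background on 3 table arrays and 1 scanner array.

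Among vitamin D and retinoid enzymes, Cyp26b1, which degrades retinoic acid, had the widest range of the 63 members above background on all 4 scanner arrays. Its level there was -0.45 in the KO-labelled challenged, 0.66 in the WT-labelled challenged, 2.04 in the KO-labelled control and 0.12 in the WT-labelled control array, so the KO-labelled control was high alone. The challenge difference was -2.48 in the KO-labelled pair (spot error 0.20) and 0.53 in the WT-labelled pair. The table gave 1.66 (KO-labelled) and 0.25 (WT-labelled) after challenge and 1.70 (KO-labelled) and 1.2 (WT-labelled) in controls, with the WT-labelled challenged array lowest. KO-labelled minus WT-labelled after challenge was 1.41 in the table and -1.10 in the scanner files, opposite in direction.

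Thymocyte markers were also highest in the KO-labelled control of the scanner files. Their summed signal was 5.35 (KO-labelled) and 3.98 (WT-labelled) after challenge, 35.9 in the KO-labelled control and 4.97 in the WT-labelled control, and 11 of 12 markers were at least 2-fold lower after challenge in the KO-labelled pair. In the table, where Rag1 and Rag2, which define these cells, were at background on all arrays, the sums were 5.25 (KO-labelled) and 8.1 (WT-labelled) after challenge and 5.35 (KO-labelled) and 8.21 (WT-labelled) in controls. The part of such cells in the scanner values of Cyp26b1 was not tested.

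Cyp24a1, which inactivates vitamin D, was low in both sources. Its table level was -6.63 in the KO-labelled challenged array, against -8.19 in the WT-labelled challenged, -8.29 in the KO-labelled control and -7.40 in the WT-labelled control array, 1.66 higher after challenge in the KO-labelled pair and 0.80 lower in the WT-labelled pair. The KO-labelled challenged array was the highest, and the background limits of the table arrays were -8.42 to -8.04, so the values of -8.19 and -8.29 lie close to them. The scanner differences were 0.36 (KO-labelled) and 0.09 (WT-labelled). Cyp27b1, which activates vitamin D, was 0.32 (KO-labelled) and 0.56 (WT-labelled) higher after challenge in the table and 0.18 (KO-labelled) and 0.17 (WT-labelled) in the scanner files. Cyp2r1, the vitamin D 25-hydroxylase, differed by 0.13 or less, and Cyp20a1, an orphan P450, by 0.25 or less.

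Some members were above background on 1 side of a comparison only and at least 2-fold beyond the limit, each read by 1 spot per array. For these, an array at background was set to its own limit or its own value, whichever was higher, so the difference is a lower bound. In the table Cyp2c39 was at least 2.68 higher on the log2 scale in the WT-labelled challenged array than in its control and Cyp2a22 at least 1.45 higher. Cyp2c50 was at least 2.19 lower in the WT-labelled challenged array than in the WT-labelled control, which alone held it. The aldosterone synthase Cyp11b2 was above background only in the KO-labelled control, so the KO-labelled challenged array was lower by at least 1.44. On the scanner arrays Cyp4a29 was above background only in the WT-labelled challenged array, at least 2.21 higher than in its control. Cyp4a32 was present in both challenged arrays of the table and in neither control, at least 1.69 higher in the KO-labelled and at least 0.83 higher in the WT-labelled pair. In the other source 5 of these 6 genes were at background on all arrays. Cyp2c50 was above background on all 4 scanner arrays, with challenge differences of 0.50 (KO-labelled) and -0.44 (WT-labelled).

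**Figure D3:**
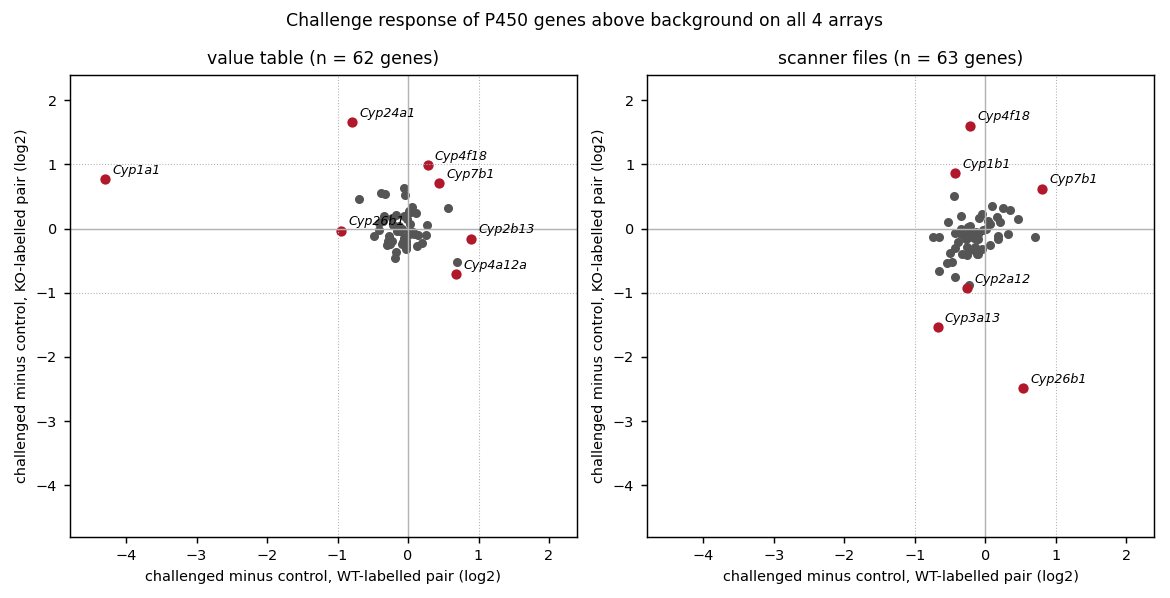
Challenged minus control on the log2 scale in the KO-labelled pair (y axis) against the WT-labelled pair (x axis), for the 62 and 63 P450 genes above background on all 4 arrays of the value table (left) and the scanner files (right), with 2-fold dotted and named genes in red. Most genes lie within 1 of the origin, Cyp1a1 lies far left in the table, Cyp26b1 far down in the scanner files, and Cyp7b1 lies in the upper right of both panels.

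Counted at 2-fold, few P450 genes differed between challenged and control arrays. For the table, 2 of 70 were higher in the KO-labelled pair (Cyp24a1 and Cyp4a32), beside 2.61% of all genes, and 1 was lower (Cyp11b2), beside 0.767%. In the WT-labelled pair 2 of 77 were higher (Cyp2c39 and Cyp2a22), beside 1.72%, and 2 were lower (Cyp1a1 and Cyp2c50), beside 0.628%. With the scanner, 1 of 66 was higher in the KO-labelled pair (Cyp4f18), beside 3.88% of all genes, and 2 were lower (Cyp26b1 and Cyp3a13), beside 3.37%. In the WT-labelled pair 1 of 74 was higher (Cyp4a29), beside 1.92%, and 0 were lower, beside 1.68%. As shares of the members, the table calls were 2.86% higher and 1.43% lower in the KO-labelled pair and 2.60% each way in the WT-labelled pair, above the all-gene shares but from 1 or 2 genes each. The scanner calls were 1.52% higher and 3.03% lower in the KO-labelled pair and 1.35% higher in the WT-labelled pair, below the all-gene shares.

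No P450 gene was 2-fold higher or lower in both genotypes of a source. In the table, 0.531% of all genes were so higher and 0.0730% lower, and in the scanner files 0.800% and 0.356%. The median challenge difference of the members with a mean level above the limit was -0.03 (KO-labelled) and -0.08 (WT-labelled) in the table and -0.11 (KO-labelled) and -0.23 (WT-labelled) in the scanner files. Over all such genes it was 0.02 (KO-labelled) and 0.01 (WT-labelled) in the table and -0.06 (KO-labelled) and -0.03 (WT-labelled) in the scanner files.

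Without a size threshold, 15 of 63 members had a challenged array below its control in both genotypes of both sources, beside 12.3% of all genes, and 3 had it above in all, beside 10.3%. The 15 were Cyp2j6, Cyp2j8, Cyp2j9, Cyp2j13, Cyp2c29, Cyp2c38, Cyp2b9, Cyp2d11, Cyp2r1, Cyp4b1, Cyp4f13, Cyp4f15, Cyp17a1, Cyp27a1 and Cyp46a1, and the 3 were Cyp7b1, Cyp2u1 and Cyp27b1. The 15 make up 23.8% of the members counted. This count was made after the values were seen and has no test, and neighbouring Cyp2j genes share sequence. It uses each gene's brightest probe. A second Cyp2c38 probe, above background on all 4 scanner arrays, was higher after challenge there, by 0.49 (KO-labelled) and 0.45 (WT-labelled). A second Cyp2r1 probe was 0.16 higher in the KO-labelled table pair and 0.08 higher in the WT-labelled scanner pair. The directions of Cyp2c38 and Cyp2r1 are therefore uncertain, like that of Cyp2j13.

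In limma's additive fit, which averages over the genotypes and has 1 residual degree of freedom, 0 of 78 members passed an adjusted p of 0.05 for challenge in the table, beside 0.00% of all genes. At an unadjusted p under 0.05 there were 6 members (7.69%, against 8.79% of all genes): Cyp27b1, Cyp2j13, Cyp2j8, Cyp4a32, Cyp7b1 and Cyp8b1. The fit used values below background as measured. Cyp4a32 was above background on 2 table arrays and Cyp8b1 on 1, so their p-values rest partly on such values. Of the scanner genes, 0 of 75 passed, beside 0.00%, and 8 members (10.7%, against 9.56% of all genes) had such an unadjusted p, among them Cyp7b1, Cyp3a13, Cyp2b10 and Cyp39a1. With a variance trend or robust variances in limma 0 members passed in either source, where the trend called 0.450% of all genes in the table and 0.00380% in the scanner files.

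Between genotype labels, Cyp2a4 was the one member past 2-fold in 1 direction under both treatments. This testosterone hydroxylase is sex-dependent in mouse liver. Its table level was 1.91 (KO-labelled) and 2.96 (WT-labelled) after challenge, and 1.83 (KO-labelled) and 2.93 (WT-labelled) in controls. Both KO-labelled arrays lay about 1 below both WT-labelled ones in both treatments. The KO-labelled minus WT-labelled difference was -1.05 after challenge and -1.10 in controls, and its second probe gave -1.24 and -1.23. Of all genes in the table, 1.37% were 2-fold lower in both treatments, 0.636% were higher, and no member was higher.

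With the scanner Cyp2a4 had levels of 6.87 (KO-labelled) and 7.08 (WT-labelled) after challenge and 7.27 (KO-labelled) and 7.19 (WT-labelled) in controls. The genotype differences there were -0.21 and 0.08, so the table's difference was not seen. No member was 2-fold different in both treatments of the scanner files, beside 0.495% of all genes lower and 0.866% higher. Cyp2a4 differs little in sequence from Cyp2a5, which has no probe of its own name here, so signal of both may be read. The second probe, which lies in the transcript at position 1272 (chromosome 7, 27098659 to 27098718, mm9), is printed to let this be checked.
Cyp2a4: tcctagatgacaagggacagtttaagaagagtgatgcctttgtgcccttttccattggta

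**Figure D4:**
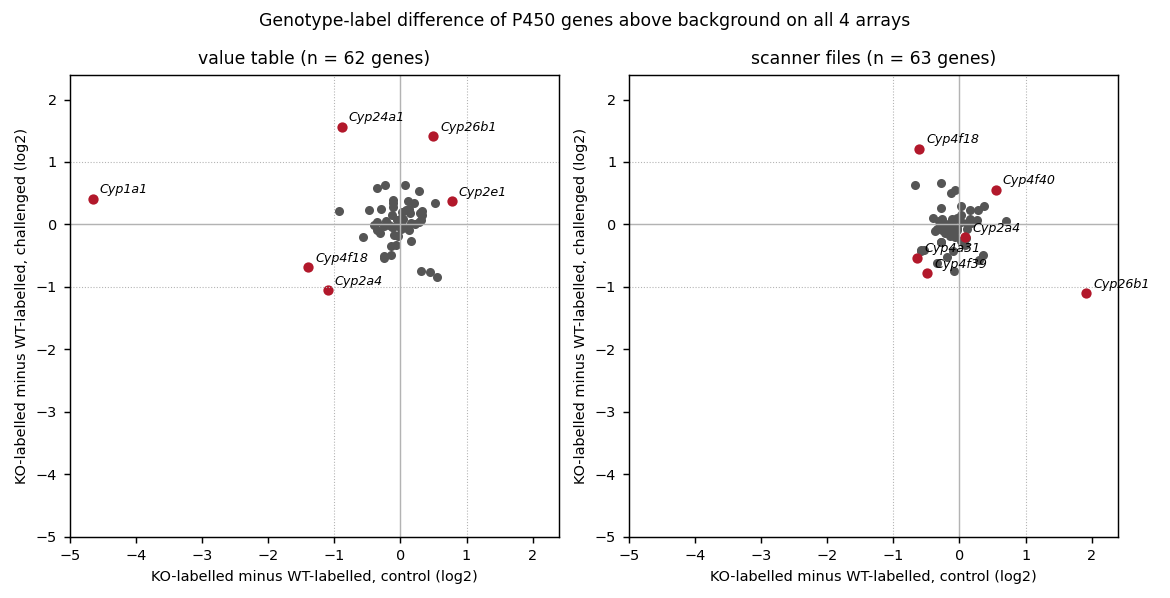
KO-labelled minus WT-labelled on the log2 scale after challenge (y axis) against controls (x axis), for the P450 genes above background on all 4 arrays of the value table (left, 62 genes) and the scanner files (right, 63 genes), with 2-fold dotted. In the table Cyp2a4 lies at about -1 on both axes, and in the scanner files near the origin, while Cyp26b1 changes side between sources.

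At 2-fold, 2 of 72 members were higher in the KO-labelled challenged array of the table (Cyp24a1 and Cyp26b1), beside 1.72% of all genes, and 3 were lower (Cyp2a4, Cyp2c39 and Cyp2a22), beside 2.47%. In the controls 1 of 75 was higher (Cyp11b2), beside 1.52%, and 4 were lower (Cyp1a1, Cyp2a4, Cyp2c50 and Cyp4f18), beside 2.33%. Cyp4f18 passed there by its brightest probe only, as the other gave -0.69. With the scanner, 1 of 71 was higher after challenge (Cyp4f18), beside 3.86%, and 2 were lower (Cyp26b1 and Cyp4a29), beside 2.57%. The other Cyp4f18 probe gave 0.51 there, under 2-fold. In the scanner controls Cyp26b1 alone of 71 was higher, by 1.91, beside 3.23%, and 0 were lower, beside 1.92%. As shares of the members, the table calls were 2.78% higher and 4.17% lower after challenge and 1.33% higher and 5.33% lower in controls. The scanner calls were 1.41% higher and 2.82% lower after challenge and 1.41% higher in controls. Each share is 1 to 4 genes. Without a size threshold, 6 of 63 members were higher in the KO-labelled array of all 4 pairs (Cyp27b1, Cyp2e1, Cyp2j6, Cyp2u1, Cyp39a1 and Cyp7b1), beside 8.59% of all genes, and 7 were lower, beside 12.5%.

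The averaged genotype effect of Cyp2a4 in the table was -1.07 with an SE of 0.07, lower in both KO-labelled arrays, with an adjusted p of 0.142 in limma. With a variance trend in limma the adjusted p was 0.00128, and that of Cyp4f18 (-1.04, SE 0.23) was 0.0428. These were 2 of 78 members, beside 4.03% of all genes. The Cyp4f18 effect rests on its brightest table probe. The other probe gave KO-labelled minus WT-labelled differences of 0.05 after challenge and -0.69 in controls. Without the trend 0 members passed, beside 0.00% of all genes, and 6 members (7.69%, against 13.8% of all genes) had an unadjusted p under 0.05. Of the scanner genes, 0 of 75 members passed for genotype, with or without the trend, beside 0.00%, and 10 (13.3%, against 10.7% of all genes) had an unadjusted p under 0.05. Robust variances gave 0 in both sources. The challenge response in the KO-labelled pair, set against that in the WT-labelled pair, was at least 2-fold higher for 5 of 78 table members, beside 1.94% of all genes, and lower for 6, beside 1.87%. For the scanner it was higher for 3 of 75, beside 4.24%, and lower for 2, beside 3.76%. Of the 11 table members, 6 remained when all 4 arrays had to be above background. The share of all genes under that filter is not given.

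Among genes that serve P450 enzymes, none of those for electron supply or heme passed 2-fold. All 10 electron donor genes, such as Por (the reductase) and Cyb5a, and all 12 genes of heme synthesis and breakdown were above background on all arrays, and 0 of them were 2-fold different in any of the 4 pairs of either source. Por was 0.20 (KO-labelled) and 0.35 (WT-labelled) higher after challenge in the table and 0.50 (KO-labelled) and 0.21 (WT-labelled) lower in the scanner files. Alas1, the first enzyme of heme synthesis, was 0.28 (KO-labelled) and 0.27 (WT-labelled) higher in the table and 0.51 lower in both pairs of the scanner files, so both genes ran in opposite directions in the sources. Alad, the next enzyme of heme synthesis, was higher in the KO-labelled array of every genotype pair, by 0.88 after challenge and 0.94 in controls in the table and by 0.42 and 0.86 in the scanner files. Hmox1, which breaks heme down, was 0.72 (KO-labelled) and 0.41 (WT-labelled) higher after challenge in the scanner files, and its table differences were -0.09 (KO-labelled) and 0.20 (WT-labelled). Of the 16 receptors that regulate P450 genes, 2 (Ahrr and Nr1i3) were 2-fold higher in the KO-labelled pair of the table and 1 (Hnf4a, 1.59) in the WT-labelled pair. With the scanner 0 were. The receptor gene Ahr itself had table levels of 2.10 (KO-labelled) and 2.15 (WT-labelled) after challenge and 2.37 (KO-labelled) and 2.34 (WT-labelled) in controls. Of 21 other drug-metabolising genes of the lung, 0 were 2-fold different between treatments in the table, and Fmo4 was 1.04 lower in the WT-labelled pair of the scanner files.

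The 2 sources gave different levels for many members. Over the 57 P450 genes above background on all 8 columns, the scanner level minus the table level had a median of 1.16, with 30 genes over 1 and 9 under -1. Over all 22482 such genes the median was 0.37, with 5387 over 1 and 3199 under -1. Cyp2a4, Cyp2b13, Cyp4a12a and Cyp4a12b were much higher in the scanner files. Cyp2e1, the ethanol-inducible enzyme, was lower there, with -4.67 (KO-labelled) and -4.75 (WT-labelled) after challenge and -4.28 (KO-labelled) and -4.43 (WT-labelled) in controls, against table levels of -0.15 (KO-labelled) and -0.53 (WT-labelled) after challenge and 0.12 (KO-labelled) and -0.66 (WT-labelled) in controls. Each source was normalised on its own.

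**Figure D5:**
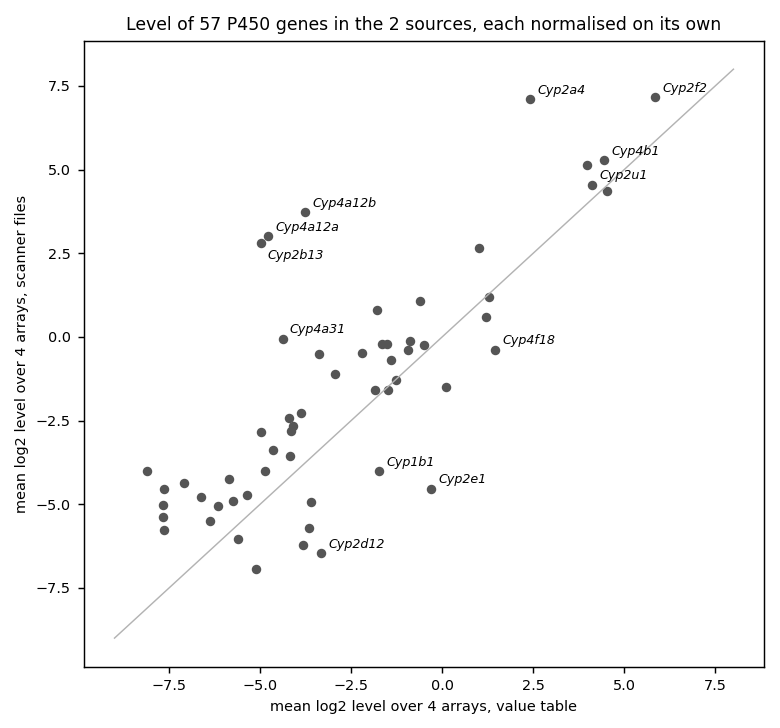
Mean log2 level over 4 arrays in the scanner files (y axis) against the value table (x axis) for the 57 P450 genes above background on all arrays of both, each source normalised on its own, with a line at equal levels. Cyp2a4, Cyp2b13, Cyp4a12a and Cyp4a12b lie far above the line and Cyp2e1 below it, while Cyp4b1 and Cyp2u1 lie near it at the top.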

How the data were processed

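RNA was hybridised to 1-colour Agilent arrays with 1 array per group, and 200 ng of pooled RNA was labelled, per the labels. Spot intensity was read with Agilent Feature Extraction 11.5.1.1, per the file headers, and probe coordinates are on mm9. The deposited value table gives a linear signal already scaled to a 75th percentile near 1 in each column, and no source used here states how the authors computed it. No other column of sample values was used (0 columns).

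Each array has 44397 spots, of which 43020 are not controls. Scanner intensity was divided by its array's 75th percentile and taken to log2, and table signal was taken to log2 as deposited. A scanner probe was above background by Agilent's flag, a table probe above 5 times the median of the negative controls. For the differences of genes between arrays, values below background were raised to the array's lowest signal above it. Printed levels and the limma fits used values as measured. A gene was its probe with the highest mean level in a source; probe names were updated through RefSeq, which renamed Cyp2c44 as Cyp2c23. The 4 arrays share 1 slide and 1 scan, and 79.2% to 82.1% of probes were above background. The number of arrays limits precision, and p-values measure only the spread left by the additive model.

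Pairwise differences were counted at 2-fold. Averaged effects were fitted with limma 3.58.1 (lmFit, eBayes, R 4.3.3) with Benjamini-Hochberg adjustment over all genes above background on at least 1 array. This step was run on simulated data, and the check it had to pass set a low spread, equal for all genes. That check does not show how limma performs at the spread of these arrays. Other software was Python 3.11.15 and pandas 2.3.3. Alternatives were normexp with an offset of 50, quantile and median scaling, filters on dim probes, the mean of a gene's probes, 1.5-fold and 3-fold rules, the other source and limma's trend and robust variances. Leaving values below background as measured in the counts at 2-fold, and the count of genes with 1 direction in all 4 pairs, were chosen after seeing the data.

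Members were picked for naming if past 2-fold in 1 direction under both genotypes or treatments, or above background on 1 side only. So were 6 from each end of the averaged challenge effects. From each end of the genotype differences and of the differences of responses, 4 were picked. Up to 3 per role and up to 3 genes of each other list were added. Not all are given with values. Those left without include Cyp2a12, Cyp2b9, Cyp2c23, Cyp2c55, Cyp2d34, Cyp3a11, Cyp3a57, Cyp4f14 and Cyp26a1. Some lay at an extreme: Cyp2a12 had scanner challenge differences of -0.93 (KO-labelled) and -0.26 (WT-labelled). Further genes in the text were picked with their values in view. The members and lists were chosen with earlier results of these data known. One result for a gene outside the P450 family is not reported here.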

Additional observations from a re-analysis of the deposited data

Results flagged for a closer look

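Several P450 genes moved in opposite directions after challenge in the KO-labelled and the WT-labelled pair. With 1 array per group the difference was not tested, and each value below is the response of the KO-labelled pair minus that of the WT-labelled pair on the log2 scale. In the value table it was 5.06 for Cyp1a1, 2.45 for Cyp24a1 and 1.14 for Cyp2c66. It was -1.05 for Cyp2b13, -1.39 for Cyp4a12a and -1.22 for Cyp4a12b. In the scanner files it was 1.82 for Cyp4f18, 1.29 for Cyp1b1 and -3.02 for Cyp26b1. The values of Cyp1a1 and Cyp26b1 each rest mainly on 1 array, the WT-labelled control and the KO-labelled control array. That of Cyp24a1 rests on the high KO-labelled challenged array and on a WT-labelled challenge difference of -0.80. Its WT-labelled challenged and KO-labelled control levels lie close to the background limit. In the other source Cyp2c66 also ran in opposite directions, 0.11 in the KO-labelled and -0.53 in the WT-labelled pair of the scanner files, and the other 8 genes did not or were at background.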

How the results depend on the processing

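Counts below are members at least 2-fold different in either direction, in the order KO-labelled pair, WT-labelled pair, KO-labelled minus WT-labelled after challenge, the same in controls, and difference of responses. They were 3, 1, 3, 1 and 5 in the scanner files and 3, 4, 5, 5 and 11 in the table, so each source stands as the other's alternative. Shares of all genes stand above for these 2-fold counts only. None is given for other settings of these counts, which therefore do not show whether members differ from all genes. A 1.5-fold rule gave 10, 9, 10, 7 and 16 in the scanner files and 8, 13, 12, 10 and 21 in the table. A 3-fold rule gave 1 after challenge and 3 for responses in the scanner files, and 1 after challenge, 3 in controls and 4 for responses in the table. Keeping only genes above background on all arrays compared gave 0 in the WT-labelled pair and 3 for responses in the scanner files, and 1, 1, 3, 3 and 6 in the table, because fewer genes were counted. Normexp correction with quantile scaling gave 0 in the WT-labelled pair and 2 for responses in the scanner files. The mean of a gene's probes gave 5 in the KO-labelled pair of the table. Values left below the floor gave 3 in the WT-labelled pair and 5 after challenge in the scanner files, and 8 in the WT-labelled pair of the table. For the averaged genotype effect in the table, limma called 0 members, 1 with the all-arrays filter (Cyp2a4, adjusted p 0.0457) and 2 with a variance trend. In the other source, KO-labelled minus WT-labelled after challenge reversed for Cyp26b1 (-1.10 in the scanner files, 1.41 in the table) and for Cyp4f18. For Cyp4f18 the table gave -0.69, where another probe was used, and the scanner's probe gave 0.05 there. The sign also changed for Cyp24a1 after challenge (-0.11 in the scanner files) and for Cyp2a4 in controls (0.081 in the scanner files). Those scanner differences were small, and a second Cyp2a4 probe gave -0.006, so the table's difference was absent there rather than opposite. The cause of these changes was not tested. Quantile scaling, median scaling, no filter and robust variances kept every such count within 1.5 times. No paired analysis was possible because each group had 1 array, and for the same reason no array could be left out. Signal near background limits what the dim members can show.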
